A study of Mus musculus with 12 samples.

Results

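The genes described here mark the macrophages of the brain, and 48 were taken by name from the gene_name column of the count table of primary astrocyte cultures. They fall into 7 classes: homeostatic microglia, macrophage receptors and adaptors, leukocyte surface and lysosomal proteins, transcription factors, the C1q chains, border macrophages and activation. Of the 48, 45 were among the 18903 genes in the table, and all 45 passed the filter on low counts together with 17893 others. *Siglech*, *Cd163* and *Lyve1* were not analysed here. The members were taken by name, from a list drawn up with earlier results of these data known.

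Microglia are the resident macrophages of the brain parenchyma, and border macrophages live in the meninges, around vessels and in the choroid plexus. Both arise from haematopoietic progenitors and depend on the receptor CSF1R, whereas astrocytes arise from neural progenitors. Microglia at rest are known for P2RY12, TMEM119 and CX3CR1, and border macrophages for the mannose receptor MRC1 and for PF4. Both can take on a phagocytic, lipid-handling state that is marked by SPP1, GPNMB, LPL, CLEC7A and ITGAX and that is known to go with lower levels of the homeostatic genes.

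The cultures came from brains of mice at postnatal day 1 (P1), P6 and P8 with the genotype labels WT and cKO, with 2 biological replicates in each of the 6 groups. WT stands for hGFAP-cre mice with the unchanged *Rack7* gene and cKO for hGFAP-cre mice with both *Rack7* alleles floxed, so that the controls carry the Cre transgene too. This promoter is active in neural stem cells that give rise to neurons and glia. The age is that of the mouse at dissection, after which the meninges were stripped off, the cells were grown in astrocyte medium, and the flasks were shaken to take off microglia and oligodendrocytes. The replicates are labelled as biological, but neither the labels nor the methods say whether each came from 1 mouse or a pool, so p-values measure the spread between these samples.

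RACK7 is encoded by *Zmynd8*, whose normalised count (CPM, counts scaled to a common library size) was 99.98 to 136 in the 6 libraries labelled WT and 160.4 to 242 in the 6 labelled cKO. It was higher, not lower, under the label cKO at all 3 time points, and a count over the whole gene does not check the 2 deleted exons. For this reason the labels are used as names below, and directions are those of the labels. The paper itself checked RACK7 protein in WT and cKO primary astrocytes by immunoblot. It also reports far fewer RACK7 ChIP-seq peaks in cKO than in WT astrocytes. Totals per library lay between 54413504 and 89183250 counts. The astrocyte label was checked against 10 astrocyte markers, whose summed level was 971 to 2546 CPM per library and was lowest in the 2 P8 libraries labelled cKO.

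The 45 genes took 1.49% to 2.13% of the counts in the 10 other libraries and 3.81% and 3.77% in the P8 libraries labelled cKO. Among them are 9 genes that other cells of such cultures are known to express. At P8 these 9 summed to 17048 to 17381 CPM under the label cKO and 6364 to 8239 CPM under the label WT. All 45 genes summed to 39975 to 40290 CPM and 17782 to 19420 CPM there. Levels can be compared between genes only per length. Per kilobase of annotated exon, the mean over 12 libraries was highest for *Lyz2*, which encodes lysozyme, at 3986 CPM per kilobase. It was 1638 for *Spp1*, 968 for *Apoe* and 856 for *C1qa* on the same scale. Among the homeostatic genes it reached 19.4 for *Tmem119* and 12.4 for *Cx3cr1*, and it was lowest for *Itgax* at 0.542. Most of the macrophage genes were thus read in cultures labelled as astrocytes, while *Itgax*, *Cst7* and, at P1, *F13a1* had few counts. Of 19 markers of other leukocytes (T and B cells, neutrophils, monocytes and mast cells), 16 were not analysed here, and the other 3 had a summed level of 0.473 to 9.79 CPM.

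At P8, the levels of most macrophage genes were higher in the libraries labelled cKO. Of the 45 genes, 33 were higher and 2 lower at an adjusted p below 0.05 with a fold change of at least 1.5, the call rule used throughout (edgeR's quasi-likelihood test, Benjamini-Hochberg over 17938 genes). Over all genes tested, 11.2% were called higher and 8.37% lower in this comparison. The median log2 fold change of the 45 genes was 1.03, beside 0.01 over all genes. Leaving out 9 genes listed as known from other cells of such cultures, 28 of 36 were higher and 2 lower. The median of the 36 was 1.02. The list need not be complete, so the 36 need not be read from macrophages alone. In RNA from a whole culture, more cells of a type and more RNA per cell cannot be told apart.

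Among the receptors, 10 of 13 were higher and none lower. *Adgre1* (F4/80, an adhesion receptor of macrophages) had 415 and 405 CPM under the label WT and 1183 and 1202 CPM under the label cKO. Its log2 fold change was 1.54 with a standard error (SE) of 0.03, and the groups did not overlap. Here and below, non-overlap of 2 libraries against 2 has a two-sided p of 0.333 in an exact test. How many of all genes did not overlap was not counted. *Msr1*, a scavenger receptor, rose from 171 and 178 to 634 and 577 CPM (log2 fold change 1.79, SE 0.05). *Tyrobp* and *Fcer1g*, the signalling adaptors of TREM2 and Fc receptors, rose with log2 fold changes of 1.38 and 0.98, and *Trem2* itself by 1.05. *Csf1r*, the receptor for CSF1 and IL-34, was not called. It stood at 625 and 618 CPM against 943 and 921 CPM, and its log2 fold change of 0.58 (SE 0.03; adjusted p = 1.61e-06 from edgeR) lay just under the fold cut-off. Its exons share 873 bases with those of *Hmgxb3*, and how reads on shared bases were counted is not stated. The call for *Fcgr3*, an Fc receptor, was lost without replicate 1 or 2 of WT or replicate 2 of cKO, with edgeR adjusted p of 0.0568, 0.0572 and 0.0813.

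The leukocyte and lysosomal class moved as a block, with 7 of 7 genes higher and log2 fold changes of 0.67 to 1.43. *Lyz2* went from 4371 and 4315 to 8836 and 8847 CPM, *Ctss* (cathepsin S) from 773 and 743 to 1362 and 1363 CPM, and *Laptm5*, a lysosomal membrane protein, from 523 and 520.2 to 908 and 899.8 CPM. The 3 genes were higher in both libraries labelled cKO than in both labelled WT. *Ptprc* (CD45) had a log2 fold change of 0.56, under the cut-off, without replicate 1 of cKO. Of the transcription factors, *Spi1* (PU.1, the lineage factor of macrophages) rose from 64.3 and 56.5 to 127 and 125 CPM and *Irf8* from 57.9 and 53.4 to 127 and 118 CPM, with log2 fold changes of 1.06 and 1.14. *Runx1* stood at 72.6 and 78.3 against 106 and 94.3 CPM, a log2 fold change of 0.41 that did not reach the fold cut-off.

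The 3 chains of C1q, the recognition molecule of the classical complement pathway, are neighbours on chromosome 4 and rose alike at P8. *C1qa* went from 609 and 571 to 1403 and 1419.8 CPM, *C1qb* from 521 and 482 to 1089 and 1069 CPM and *C1qc* from 544 and 507 to 1252 and 1247 CPM. Their log2 fold changes were 1.26, 1.10 and 1.25. Within each of the 12 libraries, the ratio of *C1qa* to *C1qc* stayed between 0.952 and 1.23 and that of *C1qb* to *C1qc* between 0.751 and 0.958.

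The homeostatic class did not follow at P8. Of its 7 genes tested, 2 were higher and 1 lower, and the median log2 fold change was 0.29. *Tmem119*, a membrane protein of microglia, was lower, with 61.8 and 57.7 CPM under the label WT and 24.3 and 21.5 CPM under the label cKO. Its log2 fold change was -1.38 (SE 0.08; adjusted p = 1.29e-06 from edgeR). *Cx3cr1*, the fractalkine receptor, was at 58.6 and 61.2 against 61.8 and 75.4 CPM (log2 fold change 0.20, SE 0.14) and was not called. *P2ry13* and *Gpr34*, receptors for nucleotides and lysophosphatidylserine, had log2 fold changes of 0.17 and 0.29, and neither was called. These genes, like the others outside the naming rule, were singled out after their values were seen. *Sall1*, a transcription factor of microglia that neural progenitors also express, rose from 12.7 and 11.9 to 30.8 and 27.5 CPM. The second gene called higher, *P2ry12*, rests on 1 library: it stood at 10.3 and 7.59 CPM against 11.1 and 31 CPM, and without replicate 2 of the cKO label its log2 fold change was 0.31 with an edgeR adjusted p of 0.278. Without replicate 1 or 2 of the WT label the adjusted p was 0.0645 and 0.173. Its adjusted p was 0.0515 with the replicate number as a block.

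The activation class had the highest median of the 7 classes at P8, with 7 of 9 genes higher, none lower and a median log2 fold change of 1.67. Other cells of such cultures are known to express 6 of the 9 (*Spp1*, *Gpnmb*, *Lpl*, *Apoe*, *Cd9* and *Axl*), and which cells carried their RNA was not tested. *Spp1* (osteopontin, a secreted matrix protein) reached 8368 and 8039.7 CPM against 2536 and 2613 CPM, and *Gpnmb*, a lysosomal glycoprotein, 2601 and 2825 against 853 and 851 CPM. *Lpl*, which encodes lipoprotein lipase, was at 99.1 and 108 CPM under the label WT and at 730.4 and 741 CPM under the label cKO, a log2 fold change of 2.83 (SE 0.06; adjusted p = 3.87e-09 from edgeR). *Clec7a*, the receptor dectin-1, went from 16.7 and 16.7 to 92.2 and 93.9 CPM. *Itgax* (CD11c) was scarce, at 0.605 and 0.748 CPM against 8.83 and 9.5 CPM, and its log2 fold change was 3.75 with an SE of 0.87. The 5 genes, all of them called, had no overlap between the groups, which 2 libraries against 2 can also give without a difference. *Apoe*, which astrocytes also make in quantity, varied within the WT label, with 2392 and 4198 CPM against 5015 and 4839.6 CPM, and was not called (adjusted p = 0.0875 from edgeR). *Axl*, a receptor tyrosine kinase, changed by 0.26 on the log2 scale, under the fold cut-off. The call for *Itgax* was lost without replicate 1 or 2 of WT (edgeR adjusted p = 0.0612 and 0.0511), and that for *Cst7* without replicate 2 of WT or of cKO (0.155 and 0.130). Leaving out single libraries lost no call for *Spp1*, *Gpnmb*, *Lpl*, *Clec7a* or *Cd9*.

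**Figure D1:**
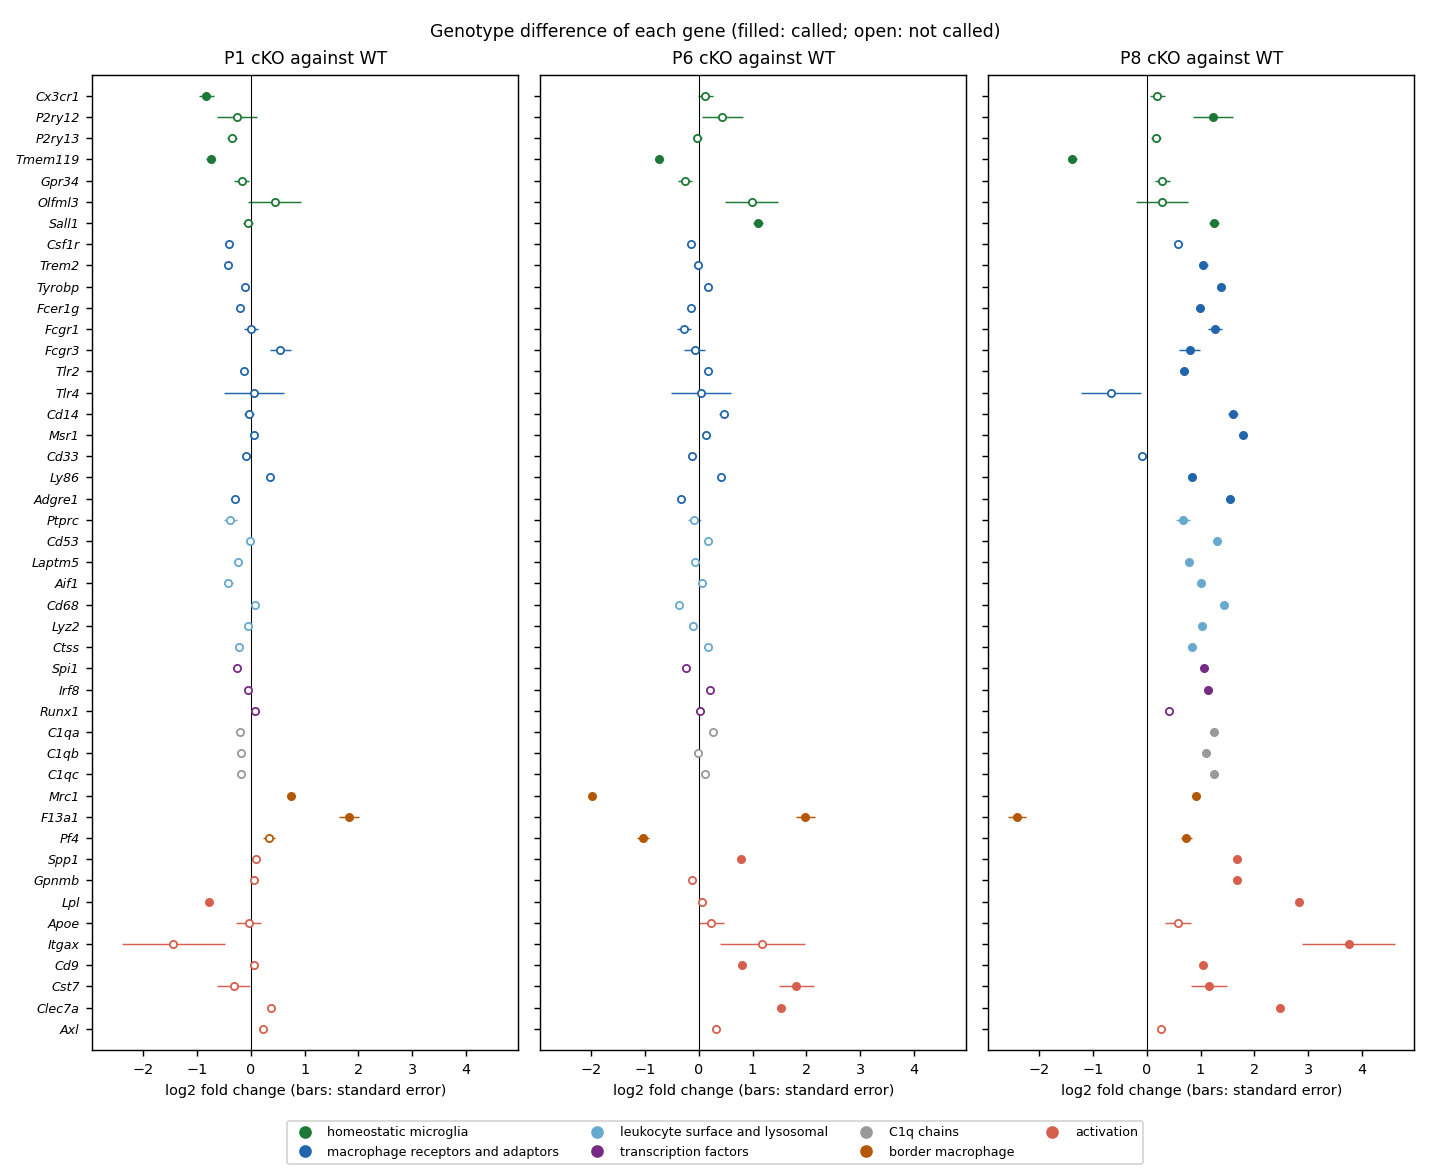
Log2 fold change of each of the 45 genes, cKO label against WT label, at P1, P6 and P8 (x axis, 1 scale for the 3 panels; bars are standard errors from edgeR; filled points were called, open points were not; colours give the class). At P8 33 filled points lie to the right of 0 and 2, *Tmem119* and *F13a1*, to the left, while at P1 and P6 most points lie near 0.

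The 3 border macrophage genes did not move as a group at P8. *Mrc1* was higher, at 703 and 726 CPM under the label WT and 1339 and 1368 CPM under the label cKO (log2 fold change 0.92, SE 0.06). *Pf4*, a chemokine of platelets and border macrophages, was higher too, at 29.9 and 27.7 against 46.4 and 49.6 CPM. *F13a1*, which encodes the A subunit of coagulation factor XIII, was lower, at 101 and 108 against 19.9 and 19.2 CPM, a log2 fold change of -2.42 (SE 0.17; adjusted p = 4.56e-06 from edgeR). Its exons share 74 bases with *Gm30489*.

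Markers of other cells moved with the label at P8 as well. The summed level of 10 astrocyte markers was 1910 to 2302 CPM under the label WT and 971 to 975 CPM under the label cKO, with 5 of 10 genes lower and none higher. For 9 fibroblast and meningeal markers it was 25703 to 25818 CPM against 8226 to 8476 CPM, with 6 of 9 lower and none higher. The part of these changes in the rise of the macrophage genes was not tested.

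At P6, the median of the macrophage genes lay near 0 while genes of single classes moved apart. Of the 45 genes, 6 were higher and 3 lower, which is 13.3% and 6.67% of them, beside 7.16% and 6.38% of all genes, and the median log2 fold change was 0.07 beside 0.00 for all genes. None of the 13 receptors, 7 leukocyte and lysosomal genes, 3 transcription factors or 3 C1q chains passed the call rule in edgeR, and none did at an unadjusted p or with DESeq2. *Lyz2*, for one, was at 3432 and 3533 CPM under the label WT and 3214 and 3232 CPM under the label cKO, and *Spi1* at 57.6 and 62 against 51.3 and 49.7 CPM.

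The largest fall at P6 was that of *Mrc1*, from 511 and 498 CPM under the label WT to 119 and 136 CPM under the label cKO, a log2 fold change of -1.98 (SE 0.06; adjusted p = 3.96e-08 from edgeR). *Pf4* fell as well, from 24.9 and 27.8 to 14.2 and 11.5 CPM. *F13a1* went the other way, from 2.6 and 3.78 to 12 and 13.3 CPM (log2 fold change 1.98, SE 0.17). The groups did not overlap in any of these genes, all of which were called. *Tmem119* was lower, at 36.6 and 38.3 against 22.4 and 22.5 CPM, while *Cx3cr1* stood at 45.8 and 41.4 against 42.5 and 52.4 CPM, where the groups overlapped. *Sall1* rose from 32.3 and 30.2 to 65.2 and 69.3 CPM.

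Activation genes gave 4 of the 6 rises at P6, with none of the 9 lower and a median log2 fold change of 0.78. Of the 4, *Spp1* and *Cd9* are listed as known from other cells of such cultures, and *Clec7a* and *Cst7* are not listed. *Spp1* went from 1501 and 1567 to 2594 and 2683 CPM (log2 fold change 0.78, SE 0.03), and *Clec7a* from 29.6 and 28.6 to 80.3 and 86.6 CPM (log2 fold change 1.52, SE 0.07). *Cd9*, a tetraspanin, rose by 0.80 on the log2 scale, and *Cst7*, a cysteine protease inhibitor, by 1.81 (SE 0.33) at levels of 0.789 and 1.75 against 4.69 and 4.28 CPM. *Gpnmb* and *Lpl* did not pass at P6, with log2 fold changes of -0.12 and 0.07. The fibroblast and meningeal markers were lower under the label cKO at this time point too (7 of 9 genes, none higher, with sums of 6681 to 6727 against 2552 to 2726 CPM), and their part in the fall of the border macrophage genes was not tested.

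At P1, few of the macrophage genes were called. Higher calls went to 2 of 45 genes (4.44%) and lower calls to 3 (6.67%), beside 4.01% and 0.892% of all genes. The median log2 fold change was -0.08 beside 0.00 for all genes, and it was negative for 30 of the 45. *Mrc1* rose from 106 and 106 to 175 and 181 CPM (log2 fold change 0.75, SE 0.06). *F13a1* rose from 1.09 and 1.19 to 3.57 and 4.53 CPM (log2 fold change 1.82, SE 0.19), at low levels. *Cx3cr1*, *Tmem119* and *Lpl* were lower: *Cx3cr1* went from 78 and 68.9 to 37.8 and 44.8 CPM, *Tmem119* from 82.2 and 76.6 to 46.4 and 48.1 CPM and *Lpl* from 97.1 and 86.9 to 53.7 and 52.9 CPM. Lower values that stayed under the fold cut-off were found for *Csf1r* (667 and 670.2 against 495 and 519 CPM) and *Adgre1* (2039 and 2031 against 1642 and 1688 CPM), whose log2 fold changes were -0.40 and -0.29. The fibroblast and meningeal markers were higher under the label cKO at P1, with 6 of 9 genes higher, none lower and sums of 411 to 427 against 2464 to 2497 CPM, and their part in the rises of *Mrc1* and *F13a1* was not tested.

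**Figure D2:**
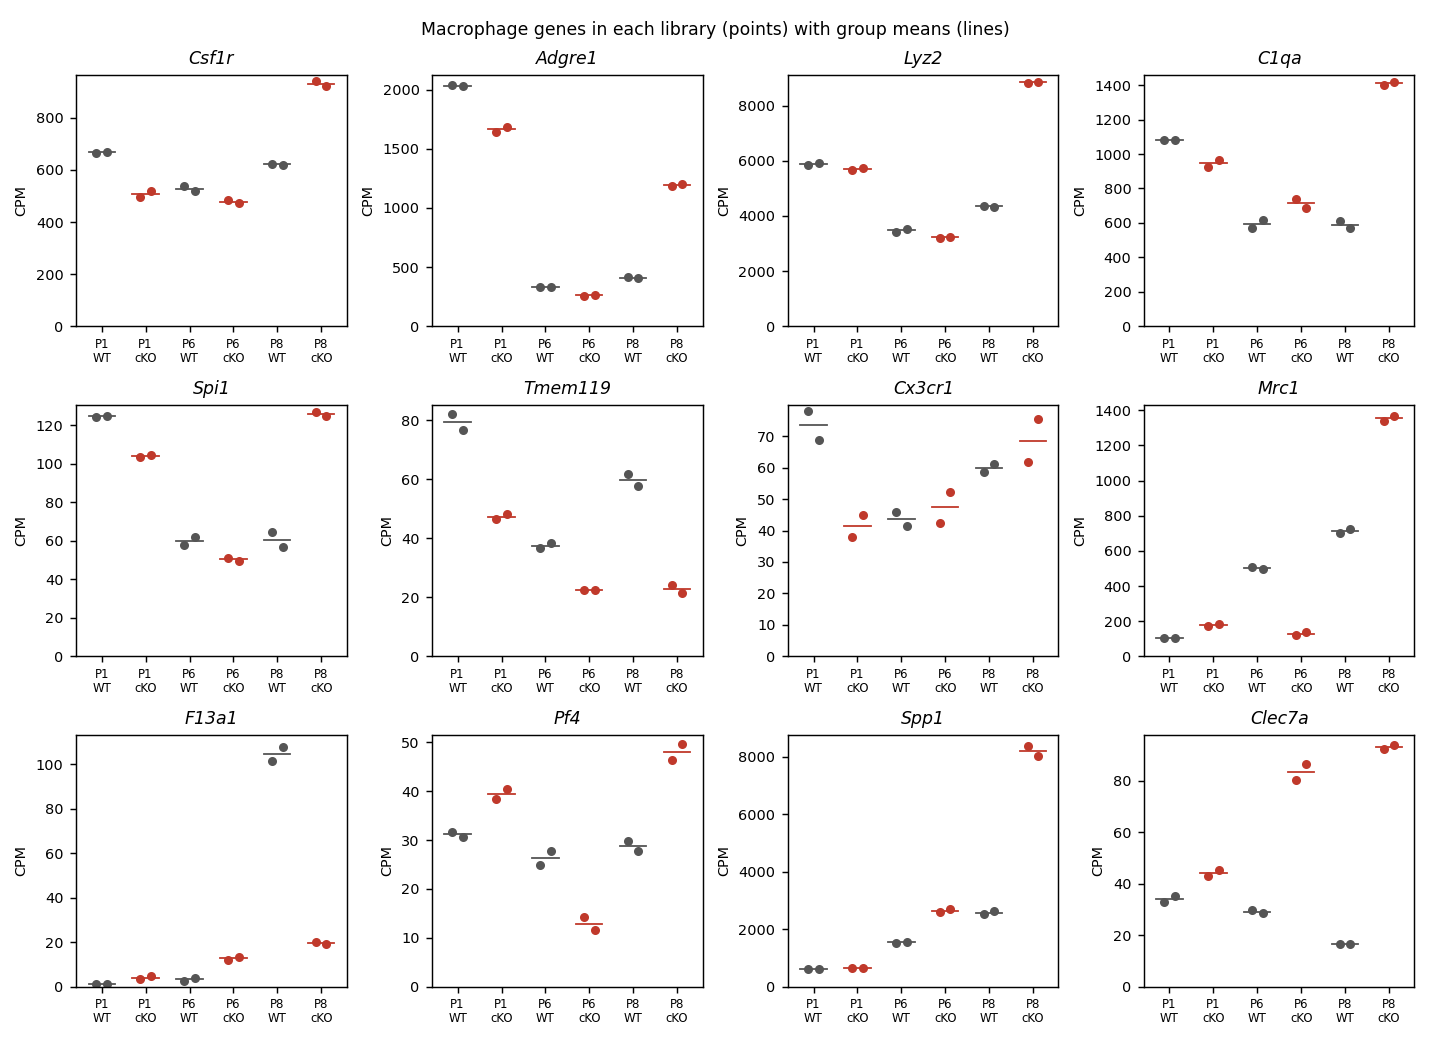
Normalised counts (CPM, linear axes from 0) of 12 genes in each of the 12 libraries; points are libraries, lines are means of 2, grey is the label WT and red the label cKO. *Adgre1*, *Lyz2*, *C1qa* and *Spi1* share a rise in the P8 libraries labelled cKO, which *Tmem119* and *F13a1* do not show.

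Across the 3 time points, 5 genes (*Cd9*, *Clec7a*, *Cst7*, *Sall1* and *Spp1*) were higher at both P6 and P8 but not called at P1, and 25 were higher at P8 alone. *Tmem119* was the 1 gene called lower at all 3. *Mrc1* was called higher, lower and higher in turn, and *F13a1* higher, higher and lower. The 9 genes never called were *Apoe*, *Axl*, *Cd33*, *Csf1r*, *Gpr34*, *Olfml3*, *P2ry13*, *Runx1* and *Tlr4*. Of these, *Olfml3* at P1 (28.2 and 81.4 CPM against 108 and 41.4 CPM) and *Tlr4* at P8 (57.1 and 56.1 against 60.5 and 11 CPM) differed more between replicates than between labels. How many of all genes tested had each of these patterns of calls was not counted.

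Whether the genotype effect itself differed between time points was tested with interaction terms, called at an adjusted p below 0.05. Between P8 and P6 the effect was more positive for 30 of the 45 genes and more negative for 2, beside 12.6% and 8.83% of all genes. Between P8 and P1 it was more positive for 33 and more negative for 2, beside 14% and 11.7%. Between P6 and P1 the numbers were 15 and 3, beside 7.12% and 8.19%. For *Mrc1* the effect at P8 exceeded that at P6 by 2.90 on the log2 scale (SE 0.08), whereas for *F13a1* the difference was -4.40 (SE 0.24). For *Adgre1* the difference between P8 and P6 was 1.87 and for *Lyz2* 1.14. For *Tmem119* it was -0.64.

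To set a change common to all macrophage genes beside a change of single classes, each gene was expressed relative to 10 reference genes of the lineage (*Csf1r*, *Tyrobp*, *Fcer1g*, *Laptm5*, *Ctss*, *Aif1*, *Ptprc*, *Cd53*, *Ly86* and *Spi1*). The relative level is log2(CPM + 0.1) minus the mean of the same over the 10 genes in that library, and it is a description with no test. The mean reference level itself differed between the labels by -0.19 at P1, 0.03 at P6 and 0.95 at P8, in log2 units. In the 2 P8 libraries labelled cKO it was 8.33 and 8.29, above the 7.39 and 7.34 of those labelled WT.

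At P8, the median of the homeostatic genes lay below this common rise and that of the activation genes above it. Of 7 homeostatic genes, 5 were at least 1.5-fold below the reference in the comparison of labels, and the median relative difference was -0.66 in log2 units (-0.30 with *Csf1r* alone and -0.92 with the C1q chains as reference). *Tmem119* was lowest, at -2.33, and *Cx3cr1* was at -0.76. *P2ry12* (0.11) and *Sall1* (0.29) were above 0. Of 9 activation genes, 5 were at least 1.5-fold above the reference, with a median of 0.72 (1.09 with *Csf1r* alone and 0.46 with the C1q chains): *Itgax* (2.63), *Lpl* (1.88), *Clec7a* (1.52), *Gpnmb* (0.72) and *Spp1* (0.72). *Axl* lay at -0.68. Since other cells are known to express *Lpl*, *Gpnmb*, *Spp1* and *Axl*, their relative levels need not be levels within macrophages. Of the 3 activation genes not listed for those cells, *Itgax* and *Clec7a* were above the reference by that measure and *Cst7* was at 0.14. The median was 0.30 for the C1q chains and 0.06 for the leukocyte and lysosomal genes, which hold 5 of the 10 reference genes. The border macrophage median was -0.21, but it was 0.15 when *Csf1r* alone was the reference, and its members ranged from -3.36 for *F13a1* to -0.03 for *Mrc1*.

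At P6 the same description gave medians of 0.08 for the homeostatic genes, -1.07 for the border macrophage genes and 0.75 for the activation genes. The homeostatic median at P6 had no fixed sign, since it lay between -0.071 and 0.24 when single libraries were left out. *Tmem119* stood at -0.77 and *Sall1* at 1.07. At P1 the medians were -0.07 for the homeostatic (0.14 with *Csf1r* alone as reference), 0.94 for the border macrophage and 0.25 for the activation genes.

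**Figure D3:**
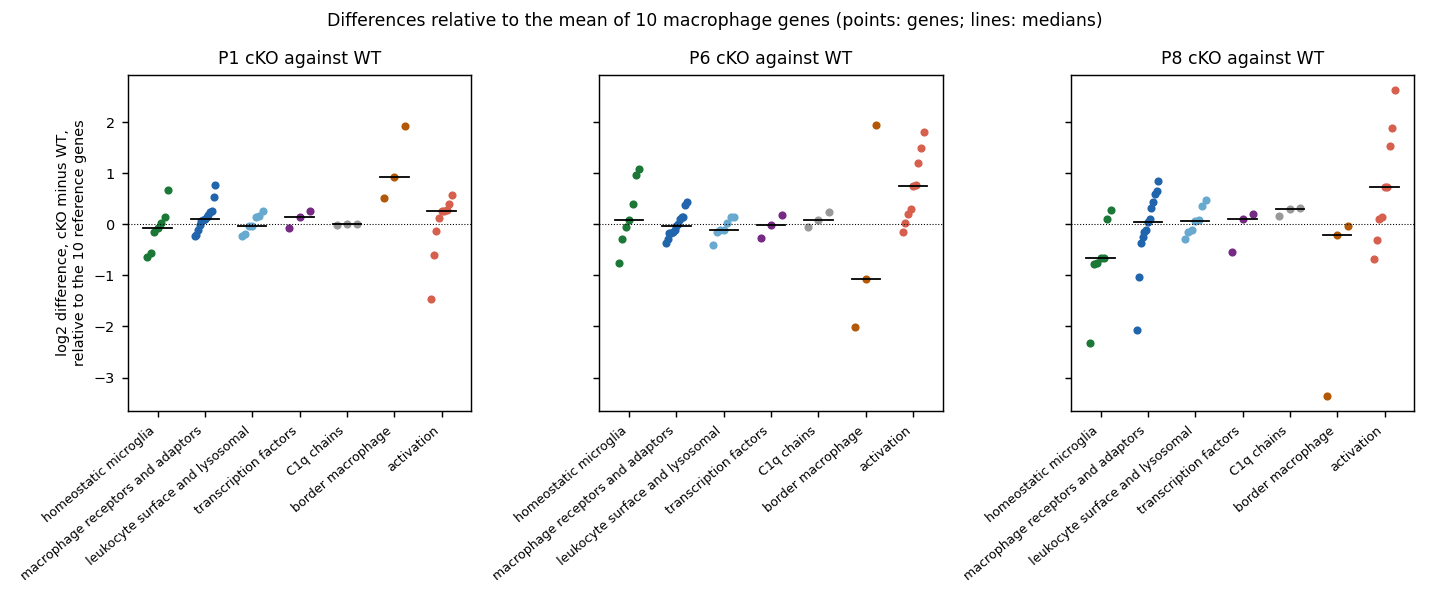
Difference between the labels (cKO minus WT) of each gene's level relative to the mean of 10 macrophage genes, in log2 units, by class at P1, P6 and P8; points are genes and lines class medians. At P8 the homeostatic median lies at -0.66 and the activation median at 0.72, and at P6 the border macrophage median lies at -1.07.

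Ratios within a library do not depend on how its counts were scaled. They are ratios within macrophages only where both genes are read from macrophages alone. *Spp1* is listed as known from other cells, and *Csf1r* shares exon bases with *Hmgxb3*. The ratio of *Tmem119* to *Csf1r* was 0.0989 and 0.0934 under the label WT at P8 and 0.0258 and 0.0233 under the label cKO. The ratio of *Cx3cr1* to *Csf1r* was 0.0937 and 0.0989 against 0.0655 and 0.0819. For *Clec7a* the ratio to *Csf1r* was 0.0267 and 0.0270 under the label WT and 0.0978 and 0.102 under the label cKO, and at P6 it was 0.0551 and 0.0549 against 0.166 and 0.183. For *Spp1* it was 4.06 and 4.22 against 8.87 and 8.73 at P8. These ratios did not overlap between the labels at P8, and that of *Cx3cr1* lay closest. The ratio of *Mrc1* to *Csf1r* was 0.952 and 0.956 at P6 under the label WT and 0.247 and 0.289 under the label cKO, and at P8 1.12 and 1.17 against 1.42 and 1.49.

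**Figure D4:**
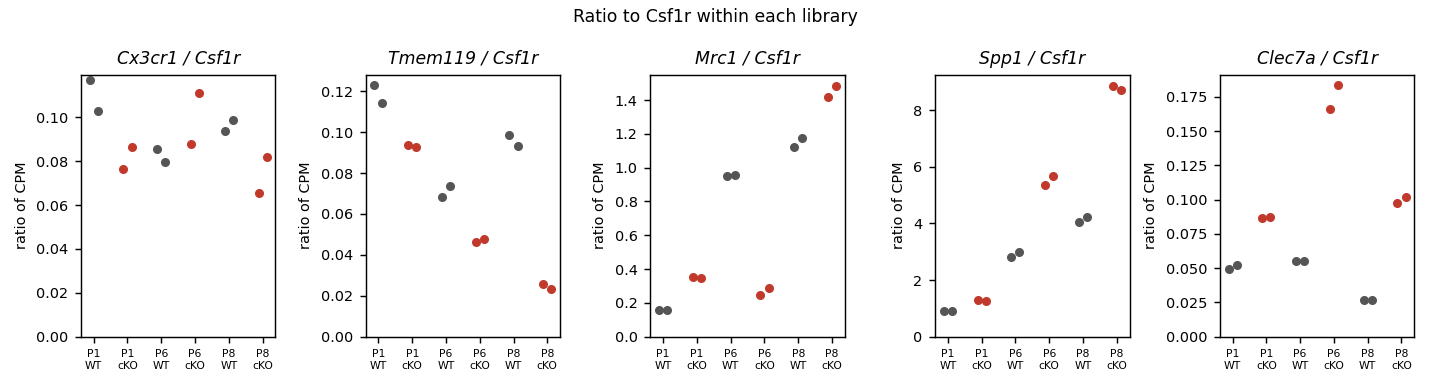
Ratio of the CPM of *Cx3cr1*, *Tmem119*, *Mrc1*, *Spp1* and *Clec7a* to that of *Csf1r* in each library (linear axes from 0; grey is the label WT, red the label cKO). The *Tmem119* ratio is lowest in the P8 libraries labelled cKO (0.0258 and 0.0233), and the *Clec7a* ratio is higher under the label cKO at each time point.

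Within the label WT, macrophage genes fell from P1 to P6. Of the 45 genes 20 were lower and 8 higher, beside 10.9% and 12.2% of all genes. *Adgre1* dropped from 2039 and 2031 to 333 and 328 CPM and *Lyz2* from 5856 and 5908 to 3432 and 3533 CPM. Among the exceptions, *Mrc1* rose from 106 and 106 to 511 and 498 CPM, *Lpl* from 97.1 and 86.9 to 442 and 446 CPM and *Spp1* from 603 and 608 to 1501 and 1567 CPM. From P6 to P8, 9 were higher and 7 lower, beside 8.66% and 10.3%. *F13a1* rose most, by 5.03 on the log2 scale, while *Lpl* returned to 99.1 and 108 CPM.

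Within the label cKO, 15 genes were lower and 10 higher at P6 than at P1, beside 10.4% and 11% of all genes. Between P6 and P8, 30 were higher and 3 lower, beside 11.9% and 12.2%. None of the 7 homeostatic genes was among the 30, and *Sall1* was lower. All 3 border macrophage genes were higher at this step, with log2 fold changes of 3.40 for *Mrc1*, 1.90 for *Pf4* and 0.63 for *F13a1*. *Lpl* did not return and stood at 457 and 472 CPM at P6 and 730.4 and 741 CPM at P8. The comparisons within a label share libraries with those between labels. At P8 the *Adgre1* level under the label cKO (1183 and 1202 CPM) was still below that of both labels at P1. The mean level of the 10 reference genes went the other way. In log2 units it was 8.33 and 8.29 in these P8 libraries, above 8.02 and 7.99 (WT) and 7.82 and 7.81 (cKO) at P1.

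Other lists of macrophage biology were read beside the 45 genes. Of 34 further lineage genes in the table, 28 were higher and none lower at P8, with a median log2 fold change of 0.82. With an unadjusted p, and with DESeq2, 1 was lower at P8. At P6, 1 was higher and 3 lower, and at P1 none was called by edgeR, with 2 higher at an unadjusted p and 2 by DESeq2. Among them, *Stab1* and *Folr2*, receptors of border and tissue macrophages, rose by 2.17 and 3.67 on the log2 scale at P8. *Folr2* shares 975 exon bases with *Gm10602*. Of 12 inflammatory genes, 10 were higher and none lower at P8, with a median of 2.04. *Tnf* went from 6.96 and 6.15 to 31.8 and 32.9 CPM and *Ccl3*, a chemokine, from 20.0 and 19 to 82.5 and 87.6 CPM. At P6, 3 of the 12 were higher and 1 lower.

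Of 8 ligands and survival factors, 4 were higher and 1 lower at P8, and the same numbers held at P6. *Csf1*, a ligand of CSF1R that astrocytes make, stood at 421 and 434 CPM against 1018 and 941 CPM at P6 and at 274 and 273 against 565 and 584 CPM at P8. *Il34*, the other ligand, was higher under the label cKO at P1, P6 and P8, with log2 fold changes of 2.04, 1.54 and 0.73. The mean reference level differed by 0.03 between the labels at P6. Any relation of these ligands to the macrophage genes was not tested. Of 5 genes of MHC class II presentation in the table, none was higher and 1 lower at P8. *Ccr2*, a receptor of monocytes, was at 8.46 and 7.01 CPM in the P8 libraries labelled WT, the same libraries in which *F13a1* was highest, and at 0.423 and 0.856 CPM in those labelled cKO (log2 fold change -3.59).

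Promoters were read because 33 genes moved together at P8 and PU.1, the product of *Spi1*, is known to bind a purine-rich core. The letters GAGGAAGT were searched on both strands in RefSeq windows of 300 bases, from 250 before to 50 after each start (GRCm38.p6). They were found in 3.20% of 32851 windows of all genes and in 6 of 47 windows of the 36 members matched (12.8%). Of the members higher at P8, 26 were matched, and 5 of their 33 windows held the letters (15.2%). The difference between these shares was not tested. The genes with a match were *Cd53*, *Ctss*, *C1qc*, *F13a1*, *Pf4* and *Spp1*. The upstream 250 bases are shown for *Pf4* and *Spp1* as examples, a border macrophage and an activation gene that were higher at P8, with capitals for the match. In *Pf4* its first base is at position -10 and the letters are on the opposite strand, and in *Spp1* it is at -113. A match describes the letters only, and binding was not measured.
Pf4 (chr5:90772185-90772434, plus strand): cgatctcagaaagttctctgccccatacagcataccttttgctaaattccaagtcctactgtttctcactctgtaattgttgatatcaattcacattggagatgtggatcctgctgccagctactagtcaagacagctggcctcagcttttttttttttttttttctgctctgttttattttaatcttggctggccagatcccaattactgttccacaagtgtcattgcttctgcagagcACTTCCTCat
Spp1 (chr5:104434861-104435110, plus strand): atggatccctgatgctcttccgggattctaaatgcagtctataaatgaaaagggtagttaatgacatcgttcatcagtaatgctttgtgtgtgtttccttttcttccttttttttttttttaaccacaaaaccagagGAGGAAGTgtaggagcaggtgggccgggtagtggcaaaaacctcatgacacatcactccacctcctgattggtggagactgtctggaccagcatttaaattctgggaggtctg

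In the GENCODE vM21 annotation of GRCm38, *Tmem119* (ENSMUSG00000054675) lies on chromosome 5 at 113793729 to 113800516, and *Mrc1* (ENSMUSG00000026712) on chromosome 2 at 14229392 to 14332057. *F13a1* (ENSMUSG00000039109) lies on chromosome 13 at 36867178 to 37050244, and *Lpl* (ENSMUSG00000015568) on chromosome 8 at 68880491 to 68907448. The counts cover whole genes, so no value here belongs to a single exon or transcript. *Spp1* shares 309 exon bases with *Gm42793* and *Cd9* shares 218 with *Gm26728*, and reads there could have been given to either gene.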

How the data were processed

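Of the study, the RNA-seq of primary astrocytes was analysed, with 12 libraries in 6 groups of 2. The authors captured mRNA, mapped the reads with HISAT2 to mm10 (GRCm38, per the submitters' processing notes) and deposited raw counts per gene, not normalized. For the counting program, its annotation and its strand setting no statement was found in the labels or the methods.

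Counts were fitted in edgeR 4.0.16 (R 4.3.3) with TMM factors (0.943 to 1.07), filterByExpr, 1 mean per group over all 12 libraries, and the quasi-likelihood test. Calls needed a Benjamini-Hochberg adjusted p below 0.05 over 17938 genes, with at least a 1.5-fold change, and interaction terms the adjusted p alone. The common biological coefficient of variation was 0.178. CPM were scaled to normalized library sizes. An exact test of 2 libraries against 2 cannot give a two-sided p below 0.333. Replicate numbers were not treated as pairs: the labels do not say that they mark pairs, and deviations of same-numbered libraries correlated between labels by -0.01 at P1, 0.01 at P6 and -0.11 at P8. The fits were tested on simulated data.

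Genes named by rule and given in every library were the 3 most abundant of each class, the 2 largest called changes per time point with a mean of at least 1 CPM, those called against their class, and those called at all time points with both signs; others given were chosen after their values were seen. The members, classes and lists were chosen with earlier results of these data known. Alternatives were DESeq2 1.42.0, its size factors, no filter, a replicate block, unadjusted p, a fold change of at least 2, the compared groups alone, each library left out, and for relative levels *Csf1r* or the C1q chains as reference and a pseudocount of 1 CPM. A crossed block at P8 was added after seeing the data.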

Additional observations from a re-analysis of the deposited data

Results flagged for a closer look

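By the interaction test in edgeR (adjusted p below 0.05), the genotype effect differed between time points for many of the 45 genes. Given here are 6 of them, which were named above for the size or direction of their change. *Mrc1* had an effect at P6 that differed from that at P1 by -2.73 (log2, SE 0.08) and one at P8 that exceeded that at P6 by 2.90. For *F13a1* the effect at P8 differed from that at P6 by -4.40 and from that at P1 by -4.24. For *Lpl* the differences were 0.85 (P6 against P1), 2.76 (P8 against P6) and 3.62 (P8 against P1). *Cx3cr1* was lower at P1 and not called later, with differences of 0.95 (P6 against P1) and 1.03 (P8 against P1). *Tmem119* fell at each time point, and by more at P8, with differences of -0.64 from P6 and -0.64 from P1. For *Itgax* the effect at P8 exceeded that at P1 by 5.19 (SE 1.27), with counts of 0 and 28 in the P1 libraries labelled cKO.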

How the results depend on the processing

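With DESeq2, with its size factors in edgeR, with all genes kept or with an unadjusted p, all 49 calls of single genes between the labels kept their direction and call. With a fold change of at least 2, 33 of the 49 were kept. The numbers called were then 1 higher and 0 lower at P1 and 3 higher for P8 against P6 within WT, and an unadjusted p gave 5 genes with a more negative effect at P6 than at P1. With the replicate number as a block, 32 genes were higher and 2 lower at P8, 6 and 3 at P6, and 2 and 3 at P1, and the call lost was *P2ry12* at P8. The crossed block, added after seeing the data, gave 33 and 2. With each library left out, P8 gave 30 to 34 genes higher and 2 to 3 lower, and 577 of 588 single calls were kept. The 11 lost were *P2ry12*, *Fcgr3*, *Itgax*, *Cst7* and *Ptprc* at P8. With the compared groups alone 48 of 49 were kept, and *P2ry12* had an adjusted p of 0.132 in edgeR. With *Csf1r* alone as reference, the relative medians were 1.15 (border) and 0.46 (activation) at P1, 0.26 (homeostatic), -0.89 (border) and 0.93 (activation) at P6, and -0.30, 0.15 and 1.09 at P8, where the border value reversed. With the C1q chains they were -1.16 (border) and 0.66 (activation) at P6 and -0.92, -0.47 and 0.46 (homeostatic, border, activation) at P8. Leaving out single libraries gave 0.21 to 0.26 for activation at P1, 0.56 to 0.75 for activation, -1.21 to -0.92 for border and -0.071 to 0.24 for homeostatic genes at P6 (below 0 without replicate 2 of cKO). The cause of these shifts was not tested. Depth limits *Itgax*, *Cst7* and, at P1, *F13a1*.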
